A study of Mus musculus with 8 samples.

Results

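Respiratory complex I subunit genes were followed in the kidneys of ageing NZBWF1 mice, the New Zealand Black by New Zealand White hybrid that develops a lupus-like disease with nephritis. The genes were taken by symbol, as every row of the array named Ndufa, Ndufb, Ndufc, Ndufs or Ndufv followed by a digit. This gave 37 rows for 37 genes, out of 19505 named genes on 22206 probes. Assembly factors, whose symbols begin with Ndufaf, were left out by that rule. Total kidney RNA of 4 mice aged 28 weeks (replicates 6 to 9) and 4 mice aged 8 weeks (replicates 1 to 4) was hybridised to 1-colour Clariom S Mouse arrays, with 1 array per mouse. All 8 mice were of strain NZBWF1, no treatment is given for either age, and sex is not stated. No other strain of matched ages was in the comparison, so age and the disease of this strain cannot be told apart.

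Complex I, NADH:ubiquinone oxidoreductase, takes electrons from NADH in the mitochondrial matrix, passes them along iron-sulfur clusters to ubiquinone and pumps protons across the inner membrane. It is L-shaped. The matrix arm is built from an N module, which oxidises NADH, and a Q module, which reduces ubiquinone, and the membrane arm carries the proton pumps. A set of core subunits conserved from bacteria does the chemistry, and accessory subunits stabilise the structure and its assembly. Many tubule cells of the kidney are rich in mitochondria because reabsorption is driven by ATP.

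Of the 37 genes, 35 encode subunits of complex I. Ndufa4, first described as a complex I subunit, is now assigned to cytochrome c oxidase, and Ndufa4l2 is its paralog. They include 6 nuclear core subunits. The mitochondrially encoded core subunits were not analysed here.

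Array intensities had been summarised by robust multi-array averaging (RMA) on a log2 scale, and ran between 2.31 and 19.89 over all arrays. Folds rest on a log base of 2, which the sources do not state. Array medians lay between 5.98 and 6.14. RMA compresses differences, so the folds given are of that scale, and the number of arrays limits their precision. The proximal tubule genes Slc34a1 and Lrp2 averaged 17.64 ± 0.23 and 18.05 ± 0.23 at 28 weeks and 18.21 ± 0.24 and 18.13 ± 0.12 at 8 weeks (SD, n = 4 arrays each) and lay near the top of the range of values, as kidney tissue has. The 28-week replicate 7 stood apart from its group. Its mean deviation over 11 macrophage and monocyte genes from their 8-week means was 0.15, against 2.85 to 3.54 in the other 28-week mice and -0.25 to 0.28 in the 8-week mice. Replicate 1 of the 8-week mice held the highest 8-week value in 33.2% of all probes and the lowest in 33.4%, more than any other 8-week mouse. The counts and medians that lead the comparison are also given without them.

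No complex I gene passed the test between ages. By limma, adjusted by Benjamini-Hochberg across the 22206 probes, 0 of 37 had an adjusted p under 0.05 in either direction, where 0.968% of all probes did (0.522% lower and 0.446% higher at 28 weeks). The smallest adjusted p of the 37 was 0.074. The differences nevertheless leaned one way. Of the 37 log2 differences (28 weeks minus 8 weeks) 36 were negative, while 51.3% of all probes had a negative difference. After quantile normalization 33 of 37 were negative, as Ndufa3, Ndufc1 and Ndufs1, all near 0, turned positive (0.05, 0.01 and 0.0033). With 1 array left out 30 to 36 were negative, 30 without 8-week replicate 2. Their median was -0.21, with a range from -0.90 to 0.09, and the median over all probes was -0.01. At an unadjusted p under 0.05, 7 of 37 were lower and 0 were higher at 28 weeks, and 6.63% of all probes were lower by that measure. In 3 of 37 genes (8.11%) all 28-week arrays lay below all 8-week arrays, which was so for 4.33% of all probes. The 37 genes share arrays and vary together, so these counts are a description and not a test. In whole kidney RNA, fewer cells of a type and less RNA per cell cannot be told apart.

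**Figure D1:**
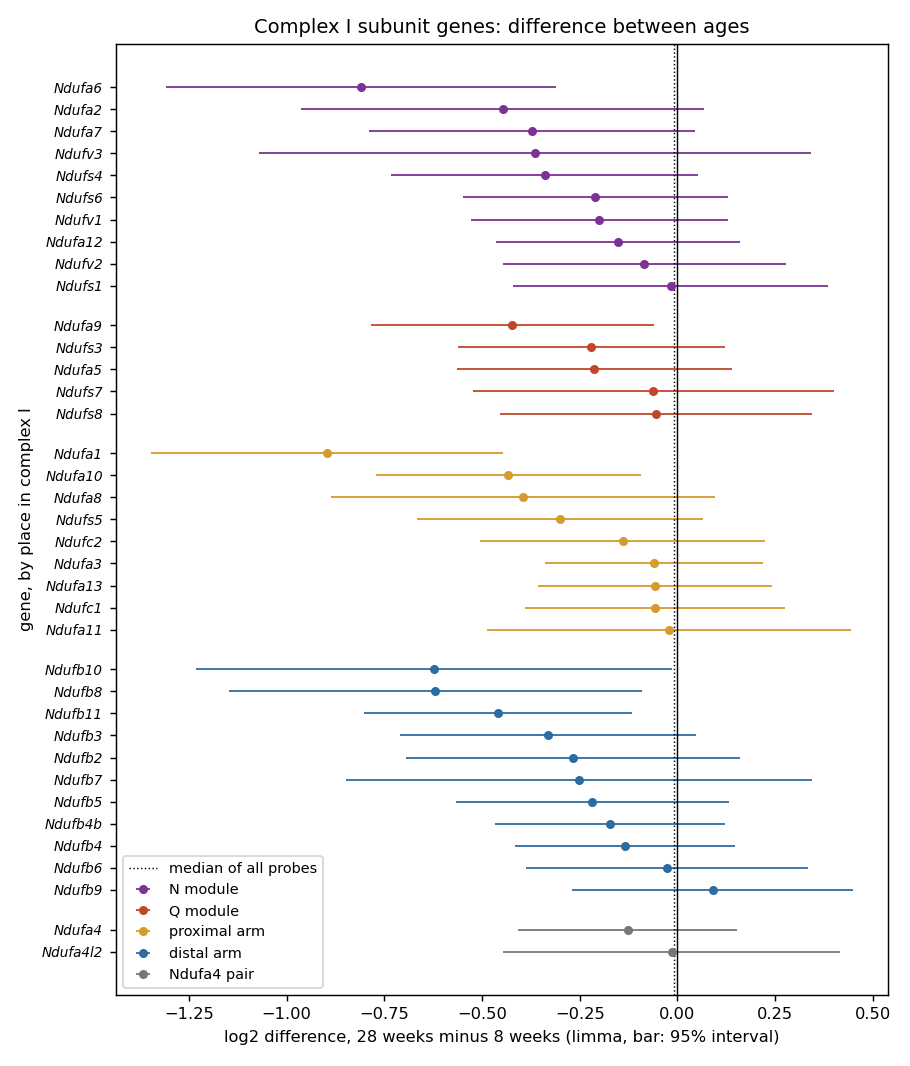
Log2 difference (28 weeks minus 8 weeks) of each of the 37 genes on the x axis, with its 95% limma interval as a bar, grouped by place in complex I; the dotted line is the median of all probes, -0.01. Points run from -0.90 for Ndufa1 to 0.09 for Ndufb9, and no gene passed the threshold after adjustment.

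The proximal part of the membrane arm, next to the matrix arm, held the gene with the largest difference. All 9 of its measured genes had a negative difference (7 after quantile normalization, without Ndufa3 and Ndufc1), none past the threshold, with a median of -0.14. Ndufa1 encodes a small accessory membrane subunit that complex I needs for assembly, and the gene lies on the X chromosome. Its log2 values (probe TC0X00002061.mm.2) were 10.64, 11.35, 11.02 and 10.78 in 28-week replicates 6 to 9, against 12.26, 11.85, 11.6 and 11.67 in 8-week replicates 1 to 4. The groups did not overlap, and 28-week replicate 7 was the closest to the 8-week mice. The mean of Ndufa1 was 10.95 ± 0.31 at 28 weeks and 11.85 ± 0.30 at 8 weeks (SD, n = 4 each). Expression of Ndufa1 was thus 1.86-fold lower in the older mice (log2 difference -0.90, SE 0.20, limma adjusted p = 0.074). Without 28-week replicate 7 the log2 difference of Ndufa1 was -1.03 and its adjusted p was 0.0154, in a fit where 1.95% of all probes were called lower and Ndufa1 alone of the 37 genes was called. Replicate 7 held the highest 28-week value of Ndufa1, so leaving it out widens the difference and narrows the spread in any case. That call is no support for a difference.

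Ndufa10, an accessory subunit on the matrix side with a nucleoside-kinase fold, was the other gene of the proximal arm without overlap. Its values were 13.47, 13.98, 13.65 and 13.73 in the 28-week mice, against 14.28, 14.24, 13.99 and 14.05 in the 8-week mice. The gap between the groups was that between 28-week replicate 7 and 8-week replicate 3. The log2 difference was -0.43 (SE 0.15, limma adjusted p = 0.203). Ndufs5, which faces the intermembrane space, averaged 10.12 ± 0.19 at 28 weeks and 10.42 ± 0.23 at 8 weeks, with overlapping groups (log2 difference -0.30, adjusted p = 0.448). Ndufa8, a twin-cysteine subunit of the intermembrane space side, had a log2 difference of -0.40 (95% interval -0.89 to 0.10). The other 5 genes of this arm, Ndufc2, Ndufa3, Ndufa13, Ndufc1 and Ndufa11, had differences between -0.14 and -0.02. For Ndufa3 the 95% interval ran from -0.34 to 0.22, so a log2 difference of the size of that of Ndufa1 lay outside it. Ndufa3 was on a brighter probe, at 15.93 at 28 weeks and 15.99 at 8 weeks. As RMA compresses differences, the interval is of array values and not of RNA amounts.

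**Figure D2:**
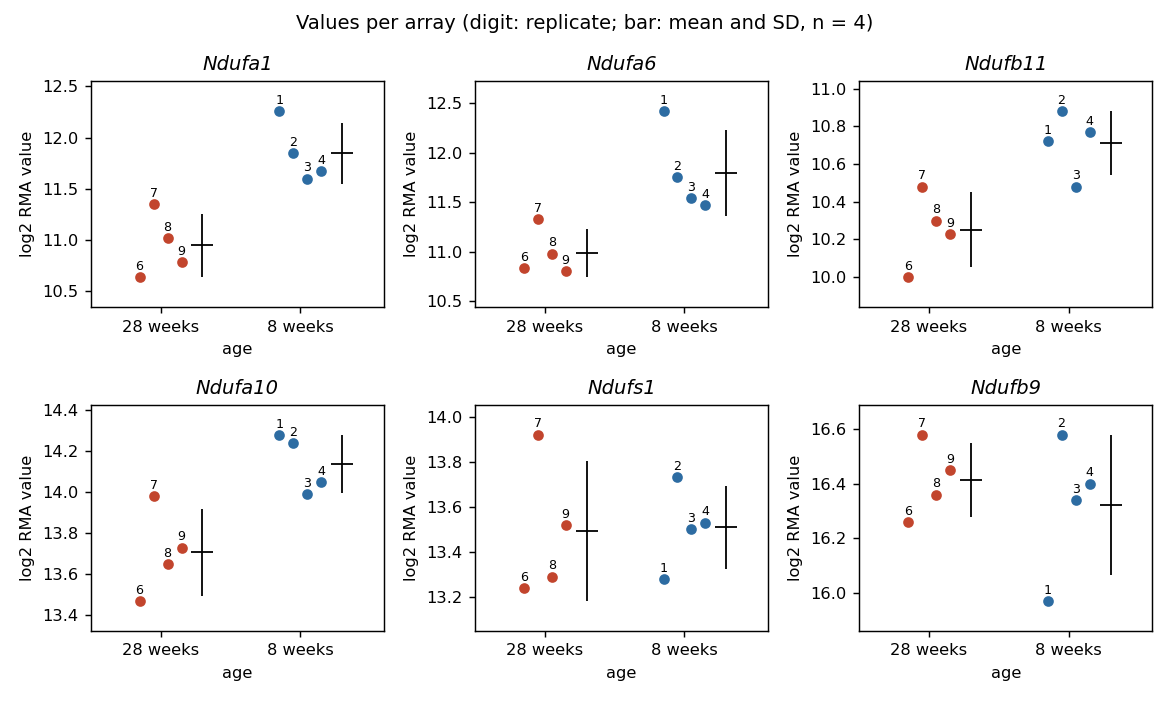
Log2 RMA values of 6 complex I genes in each array (points, labelled by replicate) at 28 weeks and at 8 weeks, with the mean and SD of 4 arrays as a bar; the y axes differ between panels and do not start at 0. The groups do not overlap for Ndufa1, Ndufa6 and Ndufa10, meet at 10.48 for Ndufb11, and overlap for Ndufs1 and Ndufb9.

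In the N module all 10 measured genes had a negative difference (9 after quantile normalization, without Ndufs1) and none passed, with a median of -0.28. Ndufa6, an accessory subunit of the LYR-motif family that binds the acyl carrier protein Ndufab1, had the second largest difference of the 37. Its values (probe TC1500001943.mm.2) were 10.83, 11.33, 10.98 and 10.8 in the 28-week mice, against 12.42, 11.75, 11.54 and 11.47 in the 8-week mice. No 28-week array reached the lowest 8-week array, and 8-week replicate 1 stood above the rest. The mean of Ndufa6 was 10.99 ± 0.24 at 28 weeks and 11.80 ± 0.43 at 8 weeks, so that its level was 1.75-fold lower in the older mice (log2 difference -0.81, SE 0.22, limma adjusted p = 0.116). Without both 28-week replicate 7 and 8-week replicate 1 the log2 difference of Ndufa6 was -0.72 and its adjusted p was 0.0297, and Ndufa1 (adjusted p = 0.0162) and Ndufa6 were then the 2 genes called, beside 2.04% of all probes called lower. Each of these arrays was the highest of its age for both genes. Leaving them out narrows the spread in any case, so these calls are no support for a difference. The accessory subunits Ndufa2, with a thioredoxin-like fold, and Ndufa7 had log2 differences of -0.45 and -0.37 with overlapping groups (adjusted p = 0.412 and 0.397 in limma).

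The 3 core subunits of the N module had log2 differences from -0.20 to -0.02. Ndufv1 carries the flavin that takes electrons from NADH. Its values were 14.98, 15.08, 14.84 and 14.68 at 28 weeks and 15.24, 15.22, 14.93 and 14.99 at 8 weeks. These ranges overlapped, with a log2 difference of -0.20 (95% interval -0.53 to 0.13). Ndufv2, an iron-sulfur subunit beside it, had a log2 difference of -0.09 (95% interval -0.45 to 0.28). Ndufs1, the largest iron-sulfur subunit, was 13.24, 13.92, 13.29 and 13.52 at 28 weeks and 13.28, 13.73, 13.5 and 13.53 at 8 weeks. Replicate 7 was the highest of all 8 arrays for Ndufs1, and the log2 difference was -0.02 (95% interval -0.42 to 0.39). Among the remaining accessory genes, Ndufs4, whose loss in mice gives a fatal encephalopathy, had a log2 difference of -0.34, and the zinc-binding Ndufs6 one of -0.21. That of Ndufa12 was -0.15. Ndufv3 had a difference of -0.37 on a dim probe with a wide spread in the 8-week mice, 5.88 ± 0.19 at 28 weeks and 6.25 ± 0.74 at 8 weeks. Without 28-week replicate 7 and 8-week replicate 1 the difference of Ndufv3 was 0.04.

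In the Q module 5 of 5 measured genes had a negative difference and none passed, with a median of -0.21. Ndufa9, an accessory subunit at the junction of both arms, averaged 13.05 ± 0.25 at 28 weeks and 13.47 ± 0.15 at 8 weeks (log2 difference -0.42, SE 0.16, limma adjusted p = 0.247). Its highest 28-week value, 13.37 in replicate 7, lay above the lowest 8-week value, 13.32 in replicate 4. The core subunit Ndufs3 had a log2 difference of -0.22 (95% interval -0.56 to 0.12) and the accessory Ndufa5 one of -0.21 (95% interval -0.56 to 0.14). Ndufs7 and Ndufs8, which carry the last iron-sulfur clusters before ubiquinone, had log2 differences of -0.06 and -0.06. Their 95% intervals ran from -0.52 to 0.40 for Ndufs7 and from -0.46 to 0.35 for Ndufs8.

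In the distal part of the membrane arm 10 of 11 measured genes were lower at 28 weeks, with a median of -0.25 and none past the threshold. Ndufb11, an X-linked membrane subunit, was 10, 10.48, 10.3 and 10.23 in the 28-week mice, against 10.72, 10.88, 10.48 and 10.77 in the 8-week mice. The groups met at 1 value, shared by 28-week replicate 7 and 8-week replicate 3. Its log2 difference was -0.46 (SE 0.15, limma adjusted p = 0.179). Ndufb8, an accessory subunit often used as a protein marker of assembled complex I, was 8.45, 9.08, 8.87 and 8.45 at 28 weeks and 9.95, 9.32, 9.07 and 8.99 at 8 weeks. Replicate 7 again lay within the 8-week range. Ndufb8 had a log2 difference of -0.62 (SE 0.24, adjusted p = 0.243 in limma). Ndufb10, a twin-cysteine subunit, averaged 8.81 ± 0.44 at 28 weeks and 9.43 ± 0.47 at 8 weeks with overlapping groups (log2 difference -0.62, SE 0.27, limma adjusted p = 0.32).

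Ndufb9 was the only one of the 37 genes with a positive difference in the values as deposited. It encodes the second LYR-motif subunit, which like Ndufa6 holds a copy of the acyl carrier protein. Its values were 16.26, 16.58, 16.36 and 16.45 at 28 weeks and 15.97, 16.58, 16.34 and 16.4 at 8 weeks, giving a log2 difference of 0.09 (95% interval -0.27 to 0.45). The low value of 8-week replicate 1 set that sign, since without it the difference was -0.03. The carrier protein gene Ndufab1, outside the symbol rule, had a log2 difference of 0.12 (95% interval -0.19 to 0.44). The other distal genes lay between -0.33 for Ndufb3 and -0.03 for Ndufb6. Ndufb4 and Ndufb4b, at -0.14 and -0.17, are near-identical copies that the array may not tell apart, so each value is uncertain.

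Ndufa4, in cytochrome c oxidase, averaged 16.94 ± 0.07 at 28 weeks and 17.06 ± 0.10 at 8 weeks (log2 difference -0.13, 95% interval -0.41 to 0.15). Ndufa4l2, a gene induced by hypoxia in other settings, was on a dim probe, at 4.93 ± 0.24 at 28 weeks and 4.94 ± 0.32 at 8 weeks (log2 difference -0.02, 95% interval -0.45 to 0.42). With both left out, 34 of the remaining 35 genes were lower at 28 weeks and the median was -0.22.

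The median of the core subunits was nearer to 0 than that of the accessory subunits on all 8 arrays, but this order turned without 2 of them. The 6 measured core genes had a median difference of -0.07 and a range from -0.22 to -0.02, and 0 of 6 had an unadjusted p under 0.05. The 29 accessory genes had a median of -0.27, a range from -0.90 to 0.09, and 7 of 29 with an unadjusted p under 0.05, all 7 lower at 28 weeks. Over all probes 6.63% were lower by that measure. With only 6 core genes, 0 of 6 cannot be set apart from that share. Those 7 accessory genes were Ndufa1, Ndufa6, Ndufb11, Ndufa10, Ndufb8, Ndufa9 and Ndufb10. The 6 core genes were on bright probes, with 28-week means from 13.49 (Ndufs1) to 14.9 (Ndufv1). Among the 7, Ndufb8, Ndufb10, Ndufb11, Ndufa1 and Ndufa6 were dimmer, at 8.71 to 10.99, and Ndufa9 and Ndufa10 were at 13.05 and 13.71. Subunit class and probe brightness were therefore not separated. No test of core against accessory genes was made, since the genes are not independent. Without 28-week replicate 7 the medians were -0.19 for core genes and -0.30 for accessory genes, and without 8-week replicate 1 they were -0.12 for core genes and -0.17 for accessory genes. Without both arrays they were -0.23 for core genes and -0.20 for accessory genes.

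The spread between mice of 1 age was about as large as the difference between ages. Within an age the SD of a gene lay between 0.07 and 0.44 at 28 weeks, with a median of 0.20, and between 0.05 and 0.74 at 8 weeks, with a median of 0.22. The mean over the 37 genes of the deviation from the 8-week mean of each gene was -0.34, -0.06, -0.26 and -0.36 in 28-week replicates 6 to 9, and 0.20, 0.14, -0.18 and -0.16 in 8-week replicates 1 to 4. Replicate 7 of the 28-week mice thus lay inside the 8-week range and the other 3 lay below it. Replicate 7 had the highest 28-week value in 29 of 37 genes, ties included, and in 29.2% of all probes. It lay within the 8-week range in 30 of 37 genes and in 65.5% of all probes. With that array left out, 9 of 37 differences lay over 1.5 times as far from 0, all 9 of them between -0.09 and -0.02 on the full set, and Ndufb9 came nearer to 0. Without 8-week replicate 1, 11 of 37 came nearer to 0 by over 1.5 times, 3 moved away by as much and 3 turned sign. Among the genes described above, the log2 difference was then -0.24 for Ndufa2, -0.23 for Ndufa8, -0.19 for Ndufs5, -0.12 for Ndufa5 and -0.05 for Ndufv3. Ndufv2 stood at -0.19, and the core subunits Ndufs7 and Ndufs8 were at -0.21 and -0.13 without 28-week replicate 7.

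The 8-week mice fell into pairs on these genes. Replicates 1 and 2 were both above replicates 3 and 4 in 25 of 37 genes and in 21.5% of all probes, an arrangement chosen after the values were seen. Replicates 3 and 4 had the highest 8-week value in 0 of 37 genes. The upper quartile of the whole array moved alongside, at 9.25, 9.16, 9.01 and 9.07 in 8-week replicates 1 to 4, against 9.14, 9.11, 9.10 and 9.13 in 28-week replicates 6 to 9. After quantile normalization, which gives all arrays 1 distribution, the pairs separated in 19 of 37 genes and in 21.8% of all probes. The mean deviations were then -0.32, -0.05, -0.24 and -0.35 in the 28-week mice and 0.16, 0.09, -0.10 and -0.14 in the 8-week mice.

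**Figure D3:**
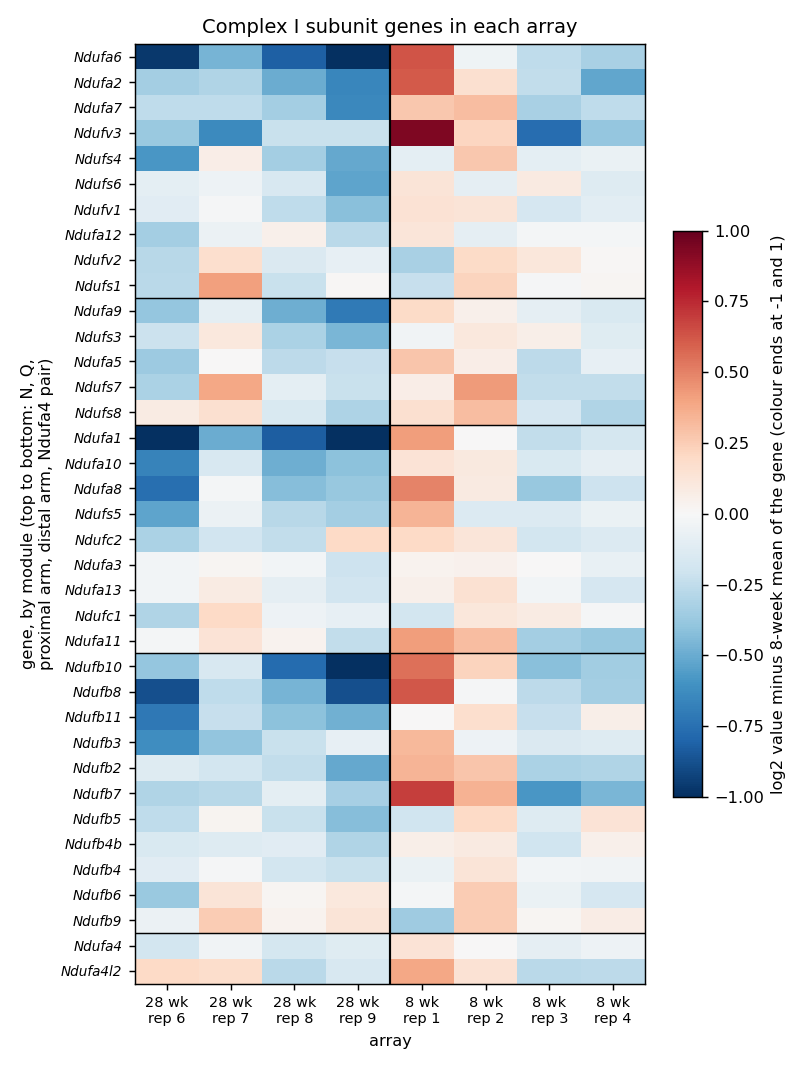
Deviation of each log2 value from the 8-week mean of its gene, with 1 row per gene grouped by module and 1 column per array (28-week arrays left of the line, 8-week arrays right); colours end at -1 and 1. The columns of 28-week replicates 6, 8 and 9 are mostly blue, replicate 7 is pale, and 8-week replicates 1 and 2 are mostly redder than replicates 3 and 4.

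The medians of the other respiratory complexes were also negative, and their order against complex I depended on the arrays used. Of 43 measured genes of complexes II to V, 35 were lower at 28 weeks, as were 51.3% of all probes, and the median was -0.10. In limma 0 of 43 passed the threshold, where 0.968% of all probes did. At an unadjusted p under 0.05, 3 of 43 were lower, which is near the 6.63% of all probes. By complex, the median was -0.16 for the 4 genes of complex II (succinate dehydrogenase), -0.19 for the 9 of complex III, -0.12 for the 15 of complex IV and -0.06 for the 15 of complex V (ATP synthase). The largest difference among them was that of Cox7a2, a cytochrome c oxidase subunit, which was 13.02 ± 0.33 at 28 weeks and 13.71 ± 0.13 at 8 weeks (log2 difference -0.68, adjusted p = 0.102 in limma). The highest was Cox4i2, a cytochrome c oxidase isoform, at a log2 difference of 0.35. Sdha, the flavoprotein of complex II, had a log2 difference of -0.47, and Sdhb, its iron-sulfur subunit, one of -0.21 (-0.33 without 28-week replicate 7). For Uqcr11 and Uqcr10, small complex III subunits, the log2 differences were -0.60 and -0.54, and that of Uqcr11 was -0.33 without 8-week replicate 1. Cox4i1, a cytochrome c oxidase subunit, had a log2 difference of -0.45. In Atp5e and Atp5j2, subunits of ATP synthase, it was -0.45 and -0.29. Without 28-week replicate 7 the median was -0.26 for the 37 genes and -0.27, -0.24, -0.15 and -0.11 for complexes II, III, IV and V. Without both named arrays it was -0.20 for the 37 genes and -0.26, -0.26, -0.10 and -0.12 for complexes II to V, so that complexes II and III then lay below complex I. The 28-week replicate 7 had the highest 28-week mean deviation for each of complexes II to V, at 0.16, 0.02, -0.02 and 0.07. Whether complex I differs from the other complexes was not tested.

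**Figure D4:**
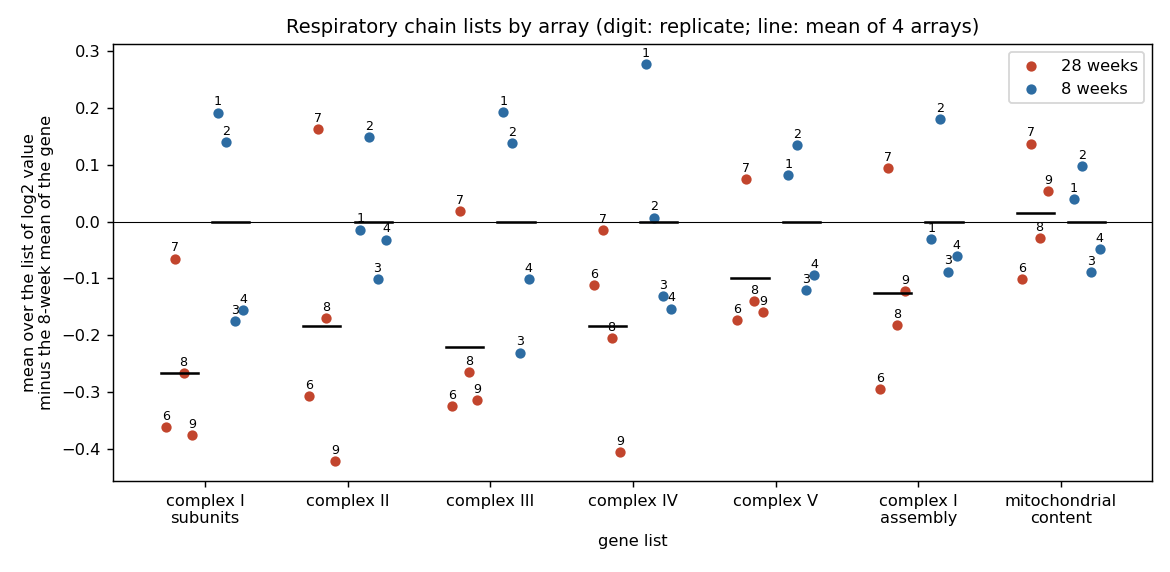
Mean over a gene list of each gene's deviation (log2) from its 8-week mean, per array (points, labelled by replicate), for 28 weeks and 8 weeks; lines are means of 4 arrays. For the 35 complex I subunits, 28-week replicates 6, 8 and 9 lie at -0.36, -0.27 and -0.38 and replicate 7 at -0.07, and for mitochondrial content genes both ages span 0.

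Other mitochondrial genes did not share 1 direction. Of 18 complex I assembly factors 13 were lower at 28 weeks, none past the threshold, with a median of -0.12. The smallest p among them belonged to Tmem70, needed for the assembly of complex I and ATP synthase, at 5.09 ± 0.19 at 28 weeks and 5.61 ± 0.14 at 8 weeks (log2 difference -0.52, limma adjusted p = 0.127), followed by Nubpl, which delivers iron-sulfur clusters to complex I (log2 difference -0.43). Among 13 genes of general mitochondrial content 6 were lower and 7 higher, with a median of 0.01. The outer membrane channel gene Vdac2 had a log2 difference of 0.25 and the import receptor gene Tomm20 one of -0.22. Of 13 regulators of mitochondrial biogenesis 10 were lower, with a median of -0.03 (-0.14 without 28-week replicate 7) and none past the threshold. Ppargc1a, the coactivator PGC-1alpha, was 14.64, 15.09, 14.25 and 14.63 at 28 weeks and 15.01, 14.76, 14.53 and 14.41 at 8 weeks (log2 difference -0.03, 95% interval -0.48 to 0.43). Polrmt, the mitochondrial RNA polymerase, had a log2 difference of -0.77 (adjusted p = 0.18 in limma), which was -0.50 without 8-week replicate 1. Esrrg, a nuclear receptor that acts on mitochondrial genes, had a log2 difference of -0.35 (-0.21 without 8-week replicate 1).

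Enzymes that feed electrons to quinones by other routes had a median of 0.16, with 3 of 5 higher at 28 weeks and none past the threshold, and a median of 0.07 without 28-week replicate 7. Etfdh, which passes electrons from fatty acid oxidation to ubiquinone, was 14.02, 14.07, 13.92 and 14.08 at 28 weeks and 13.43, 13.8, 13.75 and 13.67 at 8 weeks. All 28-week arrays lay above all 8-week arrays (log2 difference 0.36, limma adjusted p = 0.235). Nqo1, a cytosolic quinone reductase, had a log2 difference of 0.55 (adjusted p = 0.211 in limma).

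Markers of tubule segments and of leukocytes also differed in mean between ages in these arrays. All 12 proximal tubule genes were lower at 28 weeks, with 1, the organic anion transporter gene Slc22a6, past the threshold (log2 difference -0.91, limma adjusted p = 0.0313). The glucose transporter gene Slc5a2 had a log2 difference of -1.26, and without 28-week replicate 7, 2 of the 12 were called lower. The summed proximal tubule level, as a mean deviation, was -0.48, -0.08, -0.50 and -0.61 in 28-week replicates 6 to 9 and -0.03 to 0.04 in the 8-week mice. All 4 distal convoluted tubule genes were lower, with a median of -2.13, and Pvalb, a calcium-binding protein gene of that segment, passed (log2 difference -2.43, adjusted p = 0.0462 in limma). Trpm6, a magnesium channel gene, had a log2 difference of -1.84. All 4 were called lower without 28-week replicate 7, in a fit where 1.95% of all probes were called lower. The mean deviation of that list was -2.77, -0.51, -2.06 and -2.31 at 28 weeks and -0.17 to 0.39 at 8 weeks. On the proximal and the distal convoluted tubule lists replicate 7 was the 28-week array nearest the 8-week mice. The calls without it are therefore no support for a difference. In the thick ascending limb list 5 of 6 were higher, with a median of 0.70, among them Cldn19 and Slc12a1 at log2 differences of 1.47 and 0.99. Umod, also higher, was at 0.22 with overlapping groups. Egf went the other way, at -0.85, with all 28-week arrays below all 8-week arrays (limma adjusted p = 0.0951). Of 7 collecting duct genes 5 were lower, with a median of -0.48, and Aqp3 and Slc26a4 had log2 differences of -1.04 and -0.56. Of 4 podocyte genes 3 were lower, with a median of -0.32 (-0.13 without 8-week replicate 1), and Podxl and Wt1 were at -0.48 and -0.27. Among 5 endothelial genes 3 were higher, with a median of 0.38, with Cdh5 at 0.68 and Kdr at -0.40. No gene of these 4 lists passed the threshold. All 11 macrophage and monocyte genes were higher, with a median of 2.13, 11 of them at an unadjusted p under 0.05 and 0 past the threshold in limma. Of all 22206 probes 1857 were higher at an unadjusted p under 0.05. Among the 11 macrophage and monocyte genes 10 were called higher without 28-week replicate 7 and 11 without both named arrays. Over all 22206 probes, 805 and 930 were called higher in those fits. Replicate 7 had been set apart by these same genes, so the counts without it are no support for a difference. C1qa, a complement gene of macrophages, had a log2 difference of 2.53, and Lyz2 was lowest at 28 weeks in replicate 7 (8.78, against 12.45 to 14.1 in the others). All 6 T cell and all 6 B and plasma cell genes were higher, with medians of 0.47 and 0.76 and none past the threshold. Cd3e and Cd3d had log2 differences of 1.09 and 0.42, and Jchain and Sdc1 of 4.77 and 0.52. The 4 neutrophil genes and the 4 fibroblast genes were all higher, with medians of 0.12 and 0.83 and none past the threshold. Csf3r was at a log2 difference of 1.30. S100a8 was at 0.13 on a dim probe with overlapping groups, 3.54 ± 0.19 at 28 weeks and 3.41 ± 0.02 at 8 weeks. Col3a1 and Col1a2 were at log2 differences of 1.23 and 0.75. The value for Col3a1 was 2.03 without 28-week replicate 7. The part of these cell populations in the complex I differences was not tested.

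Promoters of complex I genes are known to hold sites for NRF1, YY1 and GABP, factors that act on many nuclear genes of the respiratory chain. The 250 bases before the start of transcription were read from RefSeq (GRCm38.p6) for the 33 of 37 genes in the table, and the letters of a site were searched on both strands. GCGCANGCG, for NRF1, was present in 6 of 33 genes (18.2%) and in 5.16% of all 32851 windows of this length. For each site the first share is per gene, with a match in any of its windows, and the second is per window. The 33 genes had 35 windows, so the 2 shares are not quite of 1 unit. Matches on both strands can overlap, as the site is nearly its own complement. The first match on either strand of each gene is shown with up to 12 bases on either side, the matching letters in capitals, to let the sites be compared.
Ndufa5 (chr6:24527696-24527728, minus strand): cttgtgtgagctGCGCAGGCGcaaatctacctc
Ndufa8 (chr2:36049347-36049379, minus strand): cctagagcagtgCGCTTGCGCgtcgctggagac
Ndufa11 (chr17:56717690-56717722, plus strand): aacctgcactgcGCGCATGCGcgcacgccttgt
Ndufb4 (chr16:37654539-37654571, minus strand): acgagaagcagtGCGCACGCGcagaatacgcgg
Ndufs5 (chr4:123718264-123718296, minus strand): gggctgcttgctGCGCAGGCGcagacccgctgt
Ndufs6 (chr13:73328483-73328509, minus strand): ccgactgctgtgCGCCTGCGCcggcac
The 6 genes with these letters had log2 differences from -0.40 to -0.02, which overlapped the range of -0.90 to -0.03 of the genes without them. AANATGGCG, for YY1, was present in 2 of 33 genes (6.06%) and in 1.12% of all windows. These are Ndufa7 and Ndufb11, with log2 differences of -0.37 and -0.46.
Ndufa7 (chr17:33824615-33824644, plus strand): cggagcggaaggAATATGGCGtccgctact
Ndufb11 (chrX:20617810-20617842, minus strand): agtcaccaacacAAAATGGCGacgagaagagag
CCGGAAGT, for GABP, was in 0 of 33 genes and in 2.88% of all windows. The windows of Ndufa1 and Ndufa6 are printed whole because these genes had the largest differences. Both windows held none of the 3 searched letter strings and therefore have no capitals.
Ndufa1 (chrX:37191239-37191488, minus strand): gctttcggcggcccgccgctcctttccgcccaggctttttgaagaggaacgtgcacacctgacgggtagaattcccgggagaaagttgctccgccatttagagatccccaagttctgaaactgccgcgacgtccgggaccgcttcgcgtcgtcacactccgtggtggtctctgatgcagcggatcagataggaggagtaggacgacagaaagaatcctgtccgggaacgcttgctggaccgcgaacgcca
Ndufa6 (chr15:82354292-82354541, minus strand): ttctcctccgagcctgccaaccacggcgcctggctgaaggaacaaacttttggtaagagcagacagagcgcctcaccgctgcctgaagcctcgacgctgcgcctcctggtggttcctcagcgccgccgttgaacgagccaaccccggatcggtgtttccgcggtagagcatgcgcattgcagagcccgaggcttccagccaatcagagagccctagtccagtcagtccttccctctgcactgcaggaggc
A match is a string of letters and not a measured site, and these windows say nothing of factors bound elsewhere.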

How the data were processed

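Total kidney RNA of 4 mice at 28 weeks and 4 at 8 weeks was measured on 1-colour arrays, and groups and replicate numbers were taken from the labels. The deposited log2 values were made by the authors with RMA, per the submitters' processing notes. For its version and settings, nothing was given in the sources used here. Values reach 19.89, higher than plain RMA usually gives, and the log base was taken as 2. All 8 columns were used, and no scan date was in the sources used here. All 22206 probes were fitted with lmFit and eBayes in limma 3.58.1 (R 4.3.3; 4.126 prior degrees of freedom), with p-values adjusted by Benjamini-Hochberg across them and called under 0.05. Intervals are 95% limma intervals. The platform annotation named 19572 probes. Each symbol of the 37 genes had 1 row, so no choice of row was needed.

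The genes named are the core subunits, the 3 with the smallest p in each module, the 3 largest differences each way, Ndufa4 and Ndufa4l2, and the 2 with the smallest p of each list of other genes. Others were named after their values were seen. Members, lists and tests were chosen with earlier results of these data known, so no list score was tested. Replicate numbers are not shared between ages, and no pairing was used. Alternatives were other normalizations, a filter on dim probes, other variance models, a stricter threshold and arrays left out. The code was tested on simulated data. Python 3.11.15 with pandas 2.3.3 and matplotlib 3.10.9 made the tables and figures.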

Additional observations from a re-analysis of the deposited data

Results flagged for a closer look

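Among 86 groups of 4 values examined (the 37 genes, their modules and all together, at each age), 3 held a value far from the other 3 by Dixon's criterion. Chance flags about 1 group in 20, so 3 of 86 is no more than chance would give. The groups also overlap, since the modules are made of the same genes. The 3 flagged groups were all in 8-week mice. Ndufs4 was 12.57 in 8-week replicate 2 and 12.20 to 12.23 in the other 8-week mice. Ndufs5 was 10.76 in 8-week replicate 1 and 10.28 to 10.35 in the others. Ndufb4b was 15.69 in 8-week replicate 3 and 15.94 to 15.98 in the others.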

How the results depend on the processing

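No paired analysis was possible because the ages share no replicate number. No gene was called higher at 28 weeks under any alternative run. The count called lower was 1 with the trend and robust options of eBayes, 1 with array weights and 2 when 28-week replicate 7 and 8-week replicate 1 were both left out, and 0 to 1 with a single array left out. Ndufa1 was called in each of these fits, and without 28-week replicate 7, with adjusted p from 0.0154 to 0.0405. It was not called under the other normalizations, the filter on dim probes or without any other single array. The calls of Ndufa1 without 28-week replicate 7 are no support for a difference. That array held the highest 28-week value of the gene, and leaving it out narrows the spread. The median difference of the 37 genes was -0.26 to -0.15 with 1 array left out, -0.20 after quantile normalization, -0.27 with arrays centred on their medians and -0.24 on ribosomal protein genes. All probes called numbered 215, against 399 with trend and robust options, 873 with array weights, 18 at an adjusted p under 0.01, 1384 without both named arrays, and 25 to 1237 with 1 array left out. The call count therefore moved with the arrays used, and was 1237 without 28-week replicate 7 and 25 to 94 without any other single array. A fit with 1 array left out also has fewer degrees of freedom. The cause was not tested. Among 20 named genes the sign turned for Ndufa4l2 with array weights (0.027) and without both named arrays (0.05), for Ndufb9 without both (-0.083) and for Ndufs1 after quantile normalization (0.0033). With 1 array left out the difference ran from -0.11 to 0.11 for Ndufa4l2, -0.0275 to 0.18 for Ndufb9, -0.16 to 0.0667 for Ndufs1, -0.21 to 0.0792 for Ndufs7 and -0.155 to 0.0483 for Ndufs8. The other 15 of these 20 kept their sign under every alternative run.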
